A study of Homo sapiens with 8 samples.

Results

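Hypoxia-inducible factors (HIFs) switch on a wide programme of genes, and 10 of its targets outside glycolysis are described here: VEGFA, ADM, NDRG1, CA9, P4HA1, P4HA2, BNIP3, EGLN3, ANKRD37 and FGF11. They were taken by gene name from a table of 62649 genes, each matched 1 row, and all 10 were among the 19122 genes tested, which had at least 1 TPM (transcript abundance scaled by gene length and library total) in 2 or more libraries. BNIP3 passed that filter only through PANC-1 and EGLN3 only through AsPC-1, so a difference between the lines was built into both.

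HIF is a dimer of an oxygen-regulated alpha subunit and the constant partner ARNT. When oxygen is present, prolyl hydroxylases of the EGLN family mark the alpha subunit, VHL binds the mark and the subunit is degraded; when oxygen is short, the dimer accumulates and binds short DNA motifs near its targets. These targets include secreted signals for blood vessels, enzymes that handle acid and collagen, a mitochondrial clearance factor and EGLN3 itself, and in pancreatic tumours, which are poorly perfused, many are used as markers of hypoxia.

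The study measured RNA by sequencing in AsPC-1 and PANC-1, established lines of human pancreatic cancer labelled wild type. AsPC-1 came from ascites and PANC-1 from a primary tumour of the pancreatic duct. The cells grew as spheroids for 3 days in medium thickened with methylcellulose, and all 8 groups share this 3D culture. Each line then received vehicle, roseoflavin at 10 µM, trametinib at 1 nM or both compounds for 24 h. Roseoflavin is an analogue of riboflavin (vitamin B2) made by Streptomyces, and trametinib inhibits the MEK kinases of the MAPK pathway. Each of the 8 groups was 1 library, so no group had a replicate, and p-values rest on the spread between these libraries only. The comparison asks how either compound, and the pair, moved these HIF targets in each line.

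Every library summed to 1000000 TPM within rounding, and such values carry no depth. Genes at 1 TPM or more numbered 15280 to 15580 in AsPC-1 libraries and 17105 to 17201 in PANC-1 libraries. Genes of the mitochondrial genome took 41.2% to 44.1% of TPM in AsPC-1 and 22.8% to 25.6% in PANC-1. All 7 epithelial markers fixed for the check were present in both lines, summing to 7910 to 9144 TPM (AsPC-1) and 2831 to 3141 TPM (PANC-1). Most of the PANC-1 sum came from keratins, and EPCAM lay between 14.5 and 16.8 TPM there against 1224 to 1485 TPM in AsPC-1. Of 6 mesenchymal markers, 2 reached 1 TPM in AsPC-1 and 3 in PANC-1. They summed to 668 to 825 TPM in AsPC-1 and 3155 to 3416 TPM in PANC-1, mostly VIM. Of 9 markers of leukocytes, endothelium and fibroblasts, 2 reached 1 TPM in each line, CD14 and LUM in AsPC-1 and CD14 and COL1A1 in PANC-1, with summed levels of 106 to 150 TPM and 101 to 109 TPM, and the T-cell marker CD3E was at 0 in all 8 libraries.

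The DNA around the start sites is shown first because HIF recognises a short core there. RefSeq promoters on GRCh38.p14 were at hand for 8 of the 10 genes; VEGFA and NDRG1 had no entry. The cores ACGTG and GCGTG were searched on both strands in the 250 bases before each start site; the strands of a palindromic CACGTG overlap and count as 2 matches. The stretches below read 5′ to 3′ on the strand of the gene, and capitals mark the matches, which appear as CACGT or CACGC where the core lies on the opposite strand.
ADM (chr11:10304960-10304988, plus strand): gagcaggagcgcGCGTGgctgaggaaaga
CA9 (chr9:35673898-35673926, plus strand): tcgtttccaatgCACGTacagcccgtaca
P4HA1 (chr10:73096936-73096964, minus strand): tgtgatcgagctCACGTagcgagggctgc
BNIP3 (chr10:131982014-131982075, minus strand): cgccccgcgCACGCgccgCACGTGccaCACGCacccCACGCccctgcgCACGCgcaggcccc
ANKRD37 (chr4:185396676-185396705, plus strand): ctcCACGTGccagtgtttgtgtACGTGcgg
FGF11, first of 3 listed start sites (chr17:7438091-7438145, plus strand): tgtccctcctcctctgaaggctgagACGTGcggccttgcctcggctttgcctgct

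At least 1 core was found in 6 of these 8 genes, and in 47.4% of the 27305 genes with a listed promoter. ACGTG alone was found in 5 of the 8 and in 21.7% of all. BNIP3 held 6 matches, between positions -143 and -100 from its start, and ANKRD37 held 3, between -162 and -139. The single match of CA9 began at -18, that of P4HA1 at -86 and that of ADM at -101. Neither core was present in the windows of P4HA2 and EGLN3. Positions count from the RefSeq start. The printed stretches of ADM, CA9, P4HA1 and ANKRD37 overlap exons of these genes in the GENCODE 29 annotation. For FGF11 all 3 listed start sites were searched. All these matches describe the letters of the reference and were not measured in the cells.

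Levels of the 10 genes differed widely between the lines. They are given in TPM, which is scaled per transcript length, so genes can be ranked within a library. In vehicle-treated AsPC-1 the order ran from CA9 (143 TPM) through NDRG1 (104), P4HA1 (82.0), ADM (33.3), VEGFA (25.7), EGLN3 (12.8), FGF11 (9.375), P4HA2 (4.12) and ANKRD37 (2.72) to BNIP3, which was listed at 0. In vehicle-treated PANC-1 it ran from ADM (215 TPM) through P4HA1 (214), BNIP3 (161), VEGFA (47.8), FGF11 (33.0), NDRG1 (25.2), P4HA2 (22.6), ANKRD37 (8.10) and CA9 (3.135) to EGLN3 (0.272). Over the 4 libraries of PANC-1, neighbours overlapped among ADM, P4HA1 and BNIP3 at the top and among FGF11, NDRG1 and P4HA2 in the middle. In AsPC-1, CA9 overlapped with NDRG1, NDRG1 with P4HA1, ADM with VEGFA and EGLN3 with FGF11.

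CA9, a cell-surface enzyme that turns carbon dioxide into bicarbonate and acid, differed most among the genes detected in both lines. AsPC-1 averaged 121 ± 38.9 TPM (SD over the 4 libraries of the line, as for the means that follow) and PANC-1 3.42 ± 0.273 TPM, a ratio of 35.3. EGLN3, the oxygen-sensing hydroxylase induced by HIF, averaged 10.5 ± 4.43 TPM against 0.445 ± 0.224 TPM. NDRG1, a stress-induced cytoplasmic protein, averaged 84.9 ± 34.3 TPM against 29.4 ± 5.72 TPM.

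The remaining genes were higher in PANC-1. BNIP3, an outer-membrane protein that directs mitochondria to autophagy, was at 189 ± 28.99 TPM there and listed at 0 in every AsPC-1 library. ADM, which encodes the vasodilator peptide adrenomedullin, was at 228 ± 21.5 TPM in PANC-1 and 26.7 ± 11.9 TPM in AsPC-1, a ratio of 8.53. The catalytic subunits of collagen prolyl hydroxylase were at 243 ± 35.9 TPM against 75.4 ± 18.7 TPM for P4HA1 and at 26.3 ± 4.35 TPM against 4.185 ± 0.671 TPM for P4HA2. Ratios of the line means were 2.44 for VEGFA, the main growth factor of blood vessels, 3.98 for ANKRD37, an ankyrin-repeat protein, and 4.58 for FGF11, an intracellular relative of the fibroblast growth factors.

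All 10 passed limma's test of the difference between lines (adjusted p under 0.05 over 19122 genes), where 83.8% of all genes did, so this count says little about them. The fitted differences on the log2(TPM + 1) scale, PANC-1 minus AsPC-1, ran from -4.73 for CA9 (SE 0.186, adjusted p = 7.2e-07) to 3.15 for ADM (SE 0.271, adjusted p = 3.71e-05), leaving out BNIP3. The median gene was 0.55 higher in PANC-1, 0.04 after quantile normalization and 0.25 after rescaling without mitochondrial genes. Relative to that 0.55 the values were -5.28 for CA9, -3.48 for EGLN3, -1.98 for NDRG1, 0.70 for VEGFA and 2.59 for ADM. The direction of all 10 was the same under every scaling tried. The 4 libraries of a line differ in treatment and are not replicate cultures.

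**Figure D1:**
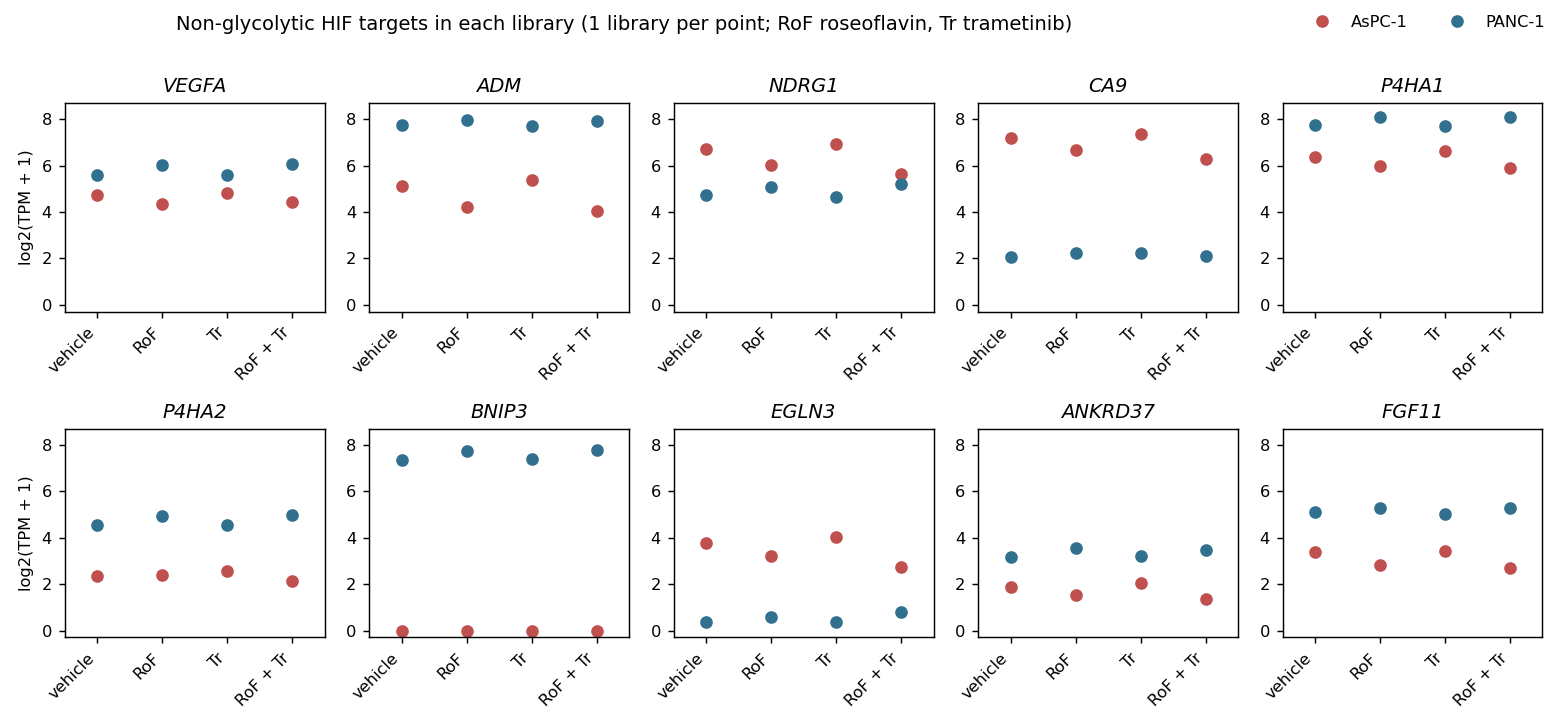
Level of each gene in every library, as log2(TPM + 1) on the vertical axis against the treatment; each point is 1 library, red for AsPC-1 and blue for PANC-1, RoF is roseoflavin and Tr trametinib. CA9, EGLN3 and NDRG1 sit higher in AsPC-1 and the other 7 in PANC-1, and the red points of 8 genes dip in both roseoflavin libraries while the blue points of 9 lift. The blue points of EGLN3 are all below 1 TPM.

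With roseoflavin, most of the 10 genes separated from the other libraries, downward in AsPC-1 and upward in PANC-1. In AsPC-1, 8 of the 10 were lower in both roseoflavin libraries than in both libraries without it, against 21.6% of all genes tested. In PANC-1, 9 of the 10 were higher in both, against 22.9%. Both patterns held for 7 of the 10 (VEGFA, ADM, NDRG1, P4HA1, EGLN3, ANKRD37 and FGF11), against 5.31% of all genes. EGLN3 is in these counts although its PANC-1 values, 0.272 to 0.744 TPM, all lay below 1 TPM. AsPC-1 had 2 exceptions, P4HA2 and BNIP3, and PANC-1 had 1, CA9. The mitochondrial share of TPM was 25.6% and 24.8% without roseoflavin and 23.7% and 22.8% with it in PANC-1. After rescaling without mitochondrial genes the fitted PANC-1 changes described below lay between 0.19 for ADM and 0.43 for NDRG1, except that CA9 turned to -0.0188. In AsPC-1 the mitochondrial share was 41.2% and 42.2% without roseoflavin and 44.1% and 41.3% with it. In bulk RNA, fewer cells expressing a gene and less of its RNA per cell cannot be told apart.

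Among the secreted signals, ADM in AsPC-1 was at 33.3 TPM with vehicle and 40.2 with trametinib, and at 17.7 with roseoflavin and 15.7 with both. Both roseoflavin libraries were thus well below the others, by 0.87 without trametinib and 1.31 with it on the log2(TPM + 1) scale. In PANC-1 the same gene was at 215 and 205 TPM without roseoflavin and at 252 and 239 TPM with it, a smaller shift upward with no overlap.

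VEGFA in AsPC-1 was at 25.7 TPM with vehicle and 26.9 with trametinib, and at 19.1 with roseoflavin and 20.4 with both. In PANC-1 it was at 47.8 and 47.7 TPM without roseoflavin and at 63.4 and 66.0 TPM with it. The shift had nearly the same size with and without trametinib in each line, -0.41 and -0.38 for AsPC-1 and 0.40 and 0.46 for PANC-1, which made VEGFA one of the most even of the 10 genes. FGF11 in AsPC-1 was at 9.375 and 9.71 TPM without roseoflavin and at 6.11 and 5.54 TPM with it. In PANC-1 it was at 33.0 and 31.4 TPM, and at 38.4 and 37.8 TPM with roseoflavin. Unnamed transcripts that overlap FGF11 on its own strand gave a like pattern, the longer at 13.8 and 14.4 TPM without roseoflavin and at 9.62 and 9.11 TPM with it in AsPC-1, and how shared reads were assigned is not given in the sources used here.

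Among the 10 genes, NDRG1 had the largest fitted difference between lines in the roseoflavin change on the log2(TPM + 1) scale. This ranking depends on the setting. Over the alternative settings that difference reached 1.96 for EGLN3 and at most 1.72 for NDRG1. In AsPC-1 NDRG1 was at 104 TPM with vehicle and 122 with trametinib, and at 64.9 with roseoflavin and 48.2 with both. In PANC-1 it was at 25.2 and 24.0 TPM without roseoflavin and at 32.7 and 35.8 TPM with it. The lines were thus farther apart with vehicle, at 104 against 25.2 TPM, than with both compounds, at 48.2 against 35.8 TPM.

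Of the acid and collagen enzymes, CA9 in AsPC-1 was at 143 and 163 TPM without roseoflavin and at 100.4 and 77.7 TPM with it. In PANC-1 its levels were low and overlapped, 3.135 and 3.68 TPM without and 3.63 and 3.24 TPM with roseoflavin, so only the AsPC-1 libraries separated. P4HA1 in AsPC-1 was at 82.0 and 98.7 TPM without roseoflavin and at 62.9 and 58.1 TPM with it, and in PANC-1 at 214 and 209.9 TPM against 276 and 273 TPM. For P4HA2 in AsPC-1, 4.12 and 5.00 TPM without roseoflavin overlapped with 4.26 and 3.36 TPM with it. In PANC-1 it was at 22.6 and 22.5 TPM, and at 29.96 and 30.2 TPM with roseoflavin, and the libraries did not overlap.

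BNIP3 could be followed only in PANC-1, where it was at 161 and 167 TPM without roseoflavin and at 213 and 216 TPM with it. EGLN3 in AsPC-1 was at 12.8 and 15.5 TPM without roseoflavin and at 8.23 and 5.66 TPM with it. In PANC-1 all 4 EGLN3 values were below 1 TPM, 0.272 and 0.273 without and 0.492 and 0.744 with roseoflavin. ANKRD37 in AsPC-1 was at 2.72 and 3.15 TPM without roseoflavin and at 1.91 and 1.57 TPM with it, and in PANC-1 at 8.10 and 8.28 TPM against 10.7 and 10.2 TPM. EGLN3 in PANC-1 and ANKRD37 in AsPC-1 are low enough that the log2(TPM + 1) scale understates their ratios.

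**Figure D2:**
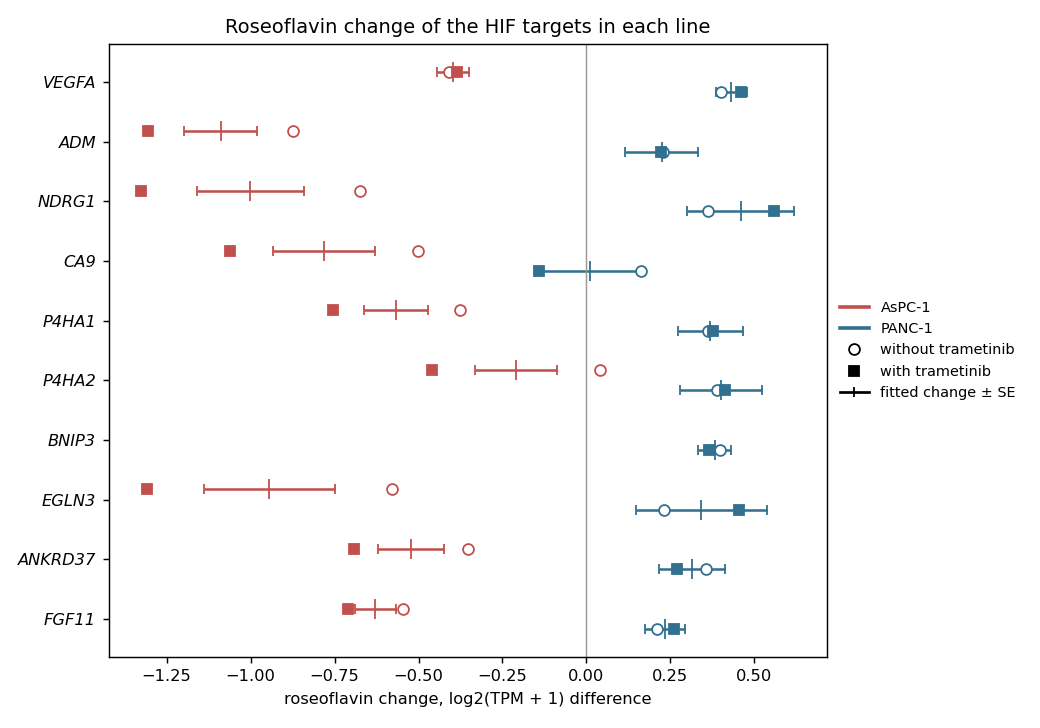
Difference in log2(TPM + 1) with roseoflavin (horizontal axis) for each gene, red for AsPC-1 and blue for PANC-1; open circles compare roseoflavin with vehicle, squares compare the combination with trametinib, and the bar is the fitted change ± SE. In AsPC-1 the markers reach -1.33 for NDRG1, and in PANC-1 all lie above 0 except the CA9 square at -0.14; BNIP3 is listed at 0 in AsPC-1 and has no red marker.

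In limma's fit over all 19122 genes none of the 10 passed the adjusted threshold in either line. The fit called 0% of all genes in each line; at an unadjusted p under 0.05 it counted 8 of the 10 in AsPC-1 (9.58% of all genes) and 7 of the 10 in PANC-1 (9.47%). The fitted AsPC-1 change was largest for ADM, at -1.09 (SE 0.109, adjusted p = 0.180), followed by NDRG1 at -1.0, EGLN3 at -0.94, CA9 at -0.78, FGF11 at -0.63, P4HA1 at -0.57, ANKRD37 at -0.52, VEGFA at -0.40 and P4HA2 at -0.21. In PANC-1 the fitted changes were closer together, from 0.46 for NDRG1 (SE 0.159, adjusted p = 0.487) and 0.43 for VEGFA (SE 0.0468, adjusted p = 0.114) down to 0.22 for ADM and 0.01 for CA9. For AsPC-1 the median over the 10 was -0.60, beside -0.03 over all genes, and for PANC-1 it was 0.36, beside 0.00. The orders differed, since ADM was first in AsPC-1 and next to last in PANC-1.

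Subtracting the AsPC-1 change with roseoflavin from the PANC-1 change gave a difference between lines that was positive for all 10 genes. It was 1.46 for NDRG1 (SE 0.225, adjusted p = 0.226), 1.31 for ADM (SE 0.154, adjusted p = 0.177) and 0.83 for VEGFA (SE 0.0661, adjusted p = 0.127). EGLN3 was at 1.29, P4HA1 at 0.94, FGF11 at 0.86, ANKRD37 at 0.84, CA9 at 0.79, P4HA2 at 0.61 and BNIP3 at 0.38, where AsPC-1 contributed only zeros. None passed, in a fit that called 0.0261% of all genes. At an unadjusted p under 0.05 all 10 counted, against 9.97% of all genes. BNIP3 counts there through its PANC-1 change alone, with the zeros of AsPC-1 in the shared spread, so its p may be too small. The median over the 10 was 0.85, beside 0.04 over all genes.

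The calls changed when low and noncoding genes were left out. Among 7907 RefSeq mRNAs averaging 10 TPM or more, which hold 8 of the 10 (not EGLN3 and ANKRD37), limma called a positive difference between lines for 6 of the 8, against 1.25% of those genes. CA9 reached that mean only through AsPC-1, with 3.42 TPM on average in PANC-1. FGF11, P4HA2 and BNIP3 reached it only through PANC-1, with averages of 7.68, 4.185 and 0 TPM in AsPC-1. ADM (adjusted p = 0.000870), VEGFA (0.00149), NDRG1 (0.00235), FGF11 (0.00253), P4HA1 (0.00320) and CA9 (0.0458) passed, and P4HA2 (0.0795) and BNIP3 (0.0991) did not. In AsPC-1 the same 6 genes were called lower with roseoflavin, against 0.797% of those genes, with adjusted p from 0.000672 for ADM to 0.0160 for VEGFA. In PANC-1, VEGFA (adjusted p = 0.00626) and BNIP3 (0.0250) were called higher, 2 of the 8 against 0.898%. The fit shares 1 spread over both lines, and BNIP3 was listed at 0 in every AsPC-1 library. Its p-value may therefore understate the spread within PANC-1. That filter was known from earlier results of these data to give more calls.

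With trametinib alone, against vehicle, no gene of the 10 differed by 0.3 or more on the log2 scale (a fold of 1.23) in either line. In AsPC-1 9.99% of all genes were lower by that much and 7.39% higher, and in PANC-1 6.6% and 6.74%. The change fitted over both lines, which averages libraries with and without roseoflavin, lay between -0.04 and 0.05 for the 10 and moved to between -0.28 and 0.28 with a library left out. None of the 10 passed (smallest adjusted p 0.974 by limma), 0 had an unadjusted p under 0.05 (4.91% of all genes), and 0% of all genes were called.

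In AsPC-1 the small trametinib shifts had a shared sign that turned with roseoflavin. Compared with vehicle, 9 of the 10 were higher with trametinib, by 0.05 for FGF11 to 0.27 for P4HA1, where 47.6% of all genes were higher. Compared with roseoflavin alone, 8 of the 10 were lower when trametinib was added, where 34.9% of all genes were. The 8 genes that were higher alone and lower on top of roseoflavin were all but VEGFA and BNIP3, against 13.3% of all genes.

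EGLN3 showed it most, at 12.8 TPM with vehicle and 15.5 with trametinib, but 8.23 with roseoflavin and 5.66 with both, shifts of 0.26 and -0.47. NDRG1 shifted by 0.23 and -0.42, CA9 by 0.19 and -0.37 and P4HA2 by 0.23 and -0.27. In PANC-1 only 2 of the 10, CA9 and ANKRD37, were higher alone and lower on top, against 21.7% of all genes. NDRG1 had the reverse order there, -0.07 and 0.12.

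The roseoflavin shift of these genes in AsPC-1 accordingly lay further down with trametinib than without it for 8 of the 10, against 39.7% of all genes. This rule also counts a smaller rise or a turn to a fall, as for P4HA2, from 0.04 to -0.46. The roseoflavin shifts with and without trametinib come from separate pairs of libraries. They are built from the same 4 libraries as the trametinib shifts and add no further evidence. With trametinib present, NDRG1 with roseoflavin was at 0.394 times its level without it, ADM at 0.390, EGLN3 at 0.365, CA9 at 0.476 and ANKRD37 at 0.498. Without trametinib the same ratios were 0.623, 0.532, 0.644, 0.704 and 0.703.

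No test separated this pattern from the spread between libraries. The roseoflavin by trametinib interaction, fitted over both lines, had a median of -0.22 over the 10, beside 0.03 over all genes, and its sign was not stable. Over the alternatives, leaving out each library among them, NDRG1 ranged from -0.90 to 0.44, ADM from -0.77 to 0.33 and VEGFA from -0.26 to 0.34, and CA9 alone of the 10 kept 1 sign, from -0.78 to -0.09. The interaction called 0% of all genes, and 0 of the 10 had an unadjusted p under 0.05 (2.8% of all genes). The difference between lines in the trametinib change lay between -0.12 and 0.22 and also called none of the 10, with 0% of all genes called and 7.28% at an unadjusted p under 0.05. With 1 library for each treatment, an interaction within AsPC-1 alone could not be tested.

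**Figure D3:**
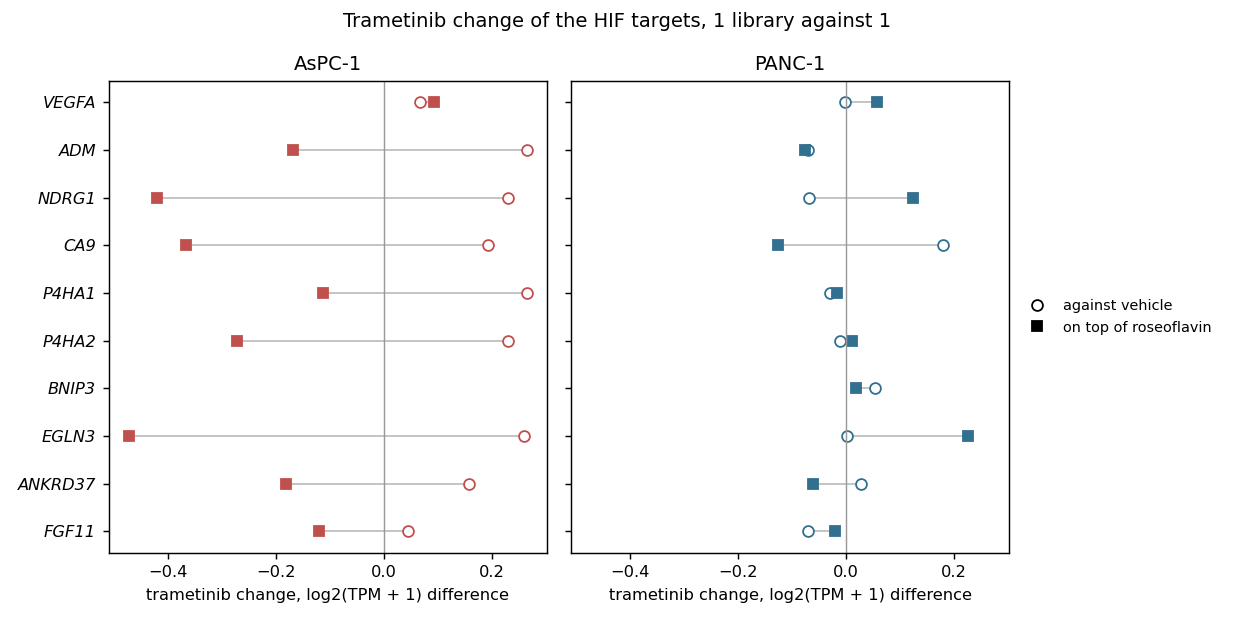
Difference in log2(TPM + 1) with trametinib (horizontal axis) for each gene, AsPC-1 left and PANC-1 right; open circles compare trametinib with vehicle and squares compare the combination with roseoflavin, each 1 library against 1. In AsPC-1 8 grey lines cross 0 from a circle above it to a square below it, the longest for EGLN3 from 0.26 to -0.47, and in PANC-1 2 do, for CA9 and ANKRD37; BNIP3 is listed at 0 in AsPC-1 and has no red marker.

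No gene of the pathway's machinery passed for roseoflavin over all genes. Of 11 genes listed, 10 were tested (not HIF3A): 2 were lower without overlap in AsPC-1 (21.6% of all genes), and in PANC-1 2 were higher (22.9%) and 4 lower (22.7%). By limma 0 were called for the roseoflavin difference between lines, 1 had an unadjusted p under 0.05 (9.97% of all genes), and the median was 0.06. When trametinib was added to roseoflavin in AsPC-1, 0 of the 10 machinery genes were lower, where 34.9% of all genes and 8 of the 10 HIF targets were. The median shift of the machinery genes was small, at 0.08. Between these libraries the mitochondrial share of TPM went from 44.1% with roseoflavin to 41.3% with both compounds. A lower share leaves more TPM to all other genes, and its part in this shift was not tested. ARNT2, which passed the filter only through PANC-1, went from 0 to 0.014 TPM. HIF1A, the main alpha subunit, was at 19.2 and 24.1 TPM without roseoflavin and at 19.4 and 21.6 TPM with it in AsPC-1. In PANC-1 it was at 55.8 and 53.9 TPM against 56.4 and 54.8 TPM. EPAS1, the alpha subunit of HIF-2, was at 30.3 and 33.8 TPM against 30.6 and 32.2 TPM in AsPC-1, and at 38.7 and 35.0 TPM against 37.2 and 38.3 TPM in PANC-1. Both alpha subunits overlapped between libraries with and without roseoflavin in both lines.

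Within that list EGLN1, the main HIF hydroxylase and itself a HIF target, had the smallest p and the direction of the 10 genes. It was at 25.8 and 30.4 TPM without roseoflavin and at 23.5 and 24.9 TPM with it in AsPC-1, and at 48.7 and 49.1 TPM against 56.7 and 55.3 TPM in PANC-1. Its difference between lines was 0.39 (SE 0.105, adjusted p = 0.385). ARNT was at 0.16, VHL at 0.17 and EGLN2, another HIF hydroxylase, at -0.16. HIF protein was not measured.

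A further 25 non-glycolytic HIF targets, all tested, leaned the same way as the 10. With roseoflavin 16 were lower in AsPC-1 without overlap (21.6% of all genes), 24 were higher in PANC-1 (22.9%) and 16 were both (5.31%). The median difference between lines was 0.57. Some of the 25 passed the filter only through PANC-1. In AsPC-1, LOX and STC2 were listed at 0, and PPP1R3C, TMEM45A, PLOD2 and LOXL2 did not exceed 0.492 TPM. PLOD2 and LOXL2 still count among the 16, and the median includes all of these genes. One passed over all genes, DDIT4, an mTOR inhibitor induced by hypoxia and other stresses. It was at 99.6 and 110 TPM without roseoflavin and 71.1 and 76.0 TPM with it in AsPC-1, and at 645 and 690.0 TPM against 867 and 913 TPM in PANC-1. The difference was 0.91 (SE 0.0540, adjusted p = 0.0383), and leaving out any 1 of the 8 libraries ended the call, with adjusted p from 0.186 to 0.461. Quantile normalization (adjusted p = 0.0710), rescaling without mitochondrial genes (0.0977) and the added line by trametinib term (0.221) ended it too. The next by p were FAM162A at 0.59, WSB1 at 0.57 and the histone demethylase KDM3A at 0.74, none past the threshold. Among the RefSeq mRNAs averaging 10 TPM or more, 13 of 20 were called positive (1.25% of those genes) and 0 negative.

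Glycolytic HIF targets, which feed and drive the conversion of glucose to lactate, also leaned this way. Of 20 tested from a list of 21, 11 were lower in AsPC-1 with roseoflavin without overlap (21.6% of all genes), 18 were higher in PANC-1 (22.9%) and 11 were both (5.31%). The median difference between lines was 0.43, beside 0.85 for the 10 genes, and a test between the lists was not made. HK2, which starts glycolysis, was at 1.10 (adjusted p = 0.177), GPI at 0.91 (adjusted p = 0.193), PGK1 at 0.56 and GAPDH at 0.45. Over all genes limma called 0 (13 at an unadjusted p under 0.05, against 9.97% of all genes), and among those RefSeq mRNAs 10 of 19 were called positive (1.25% of them).

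**Figure D4:**
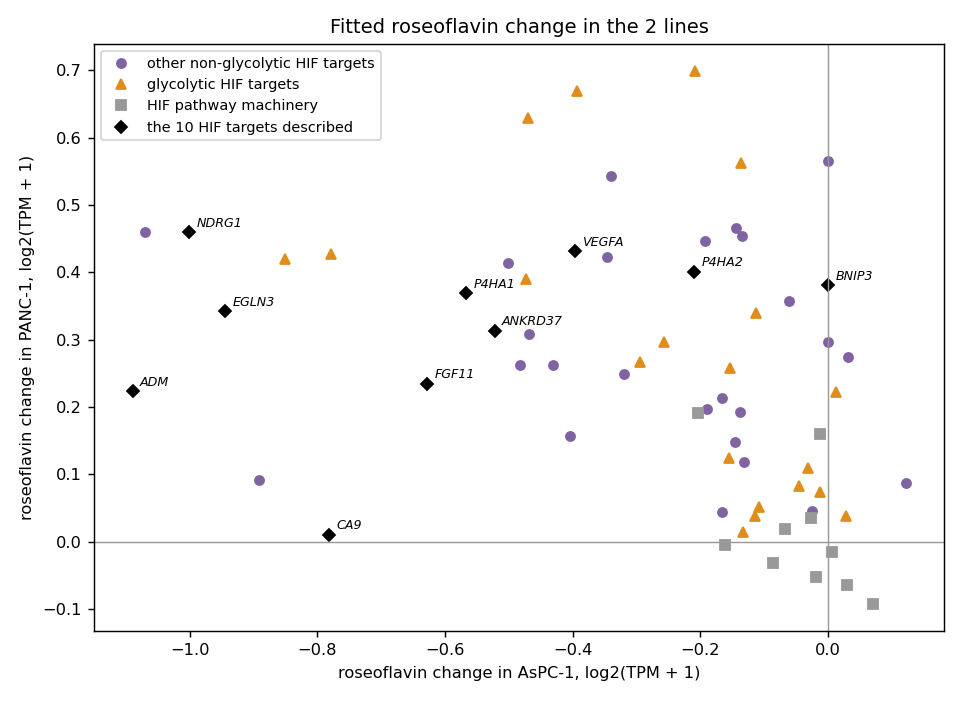
Fitted roseoflavin change in AsPC-1 (horizontal axis) against that in PANC-1 (vertical axis), both in log2(TPM + 1), for the 10 genes (black diamonds, named), other non-glycolytic HIF targets (purple circles), glycolytic targets (orange triangles) and pathway machinery (grey squares). NDRG1, ADM and EGLN3 lie farthest left among the 10, BNIP3 lies at 0 in AsPC-1 because it was listed at 0 there, CA9 lies next to the line of no change in PANC-1, and the grey squares lie near the origin.

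Of 8 listed receptor genes for VEGFA and adrenomedullin, 4 were tested. The VEGF receptors FLT1 and KDR did not exceed 0.993 and 0.158 TPM in any library. CALCRL, the core of the adrenomedullin receptor, did not exceed 1.14 TPM. The VEGF co-receptor NRP1 lay between 20.8 and 21.7 TPM (AsPC-1) and between 30.9 and 32.5 TPM (PANC-1), and its relative NRP2 between 8.91 and 10.03 TPM and between 2.99 and 3.41 TPM. Of the CALCRL partners, RAMP2 did not exceed 1.93 TPM and RAMP3 0.101 TPM, and RAMP1 reached 245 to 272 TPM in AsPC-1 but 1.25 to 2.52 TPM in PANC-1.

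The 10 genes differed in how closely each followed their shared profile. With values centred within each line over 8 libraries, Pearson's r with the mean of the 10, to which each contributes, was 0.994 for ANKRD37 and NDRG1, 0.986 for P4HA1, 0.979 for FGF11, 0.977 for EGLN3, 0.957 for ADM, 0.888 for VEGFA, 0.882 for CA9, 0.817 for P4HA2 and 0.441 for BNIP3. Among 8622 other named genes averaging 10 TPM or more, the 5 most like that mean were KDM3A (r = 0.991), MT2A, a metallothionein that binds zinc and copper (0.989), CYP2S1, a cytochrome P450 (0.985), PNMA2 (0.984) and TAF1D, a subunit of a factor for ribosomal RNA transcription (0.980). These values share libraries and describe likeness over 8 points only.

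MT2A was at 41.5 and 46.8 TPM without roseoflavin and 28.8 and 27.5 TPM with it in AsPC-1, and at 666 and 645 TPM against 809 and 826 TPM in PANC-1. KDM3A was at 20.6 and 21.6 TPM against 15.5 and 14.2 TPM, and at 29.5 and 30.5 TPM against 35.4 and 37.0 TPM. CYP2S1, with its higher level in AsPC-1, was at 230 and 233 TPM against 193 and 182 TPM there, and at 13.6 and 13.9 TPM against 15.8 and 15.9 TPM in PANC-1. In all 3 the libraries with and without roseoflavin did not overlap in either line. These genes were picked for likeness to the shared profile over the same libraries. Their separation was thus largely set by that choice and adds no further evidence.

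By the GENCODE 29 annotation of GRCh38, which locates the gene and not the reads, all 10 are protein-coding. VEGFA (ENSG00000112715) spans chromosome 6, 43770184 to 43786487, ADM (ENSG00000148926) chromosome 11, 10304680 to 10307397, and FGF11 (ENSG00000161958) chromosome 17, 7438273 to 7444937. NDRG1 (ENSG00000104419) spans chromosome 8, 133237171 to 133302022, CA9 (ENSG00000107159) chromosome 9, 35673856 to 35681159, and ANKRD37 (ENSG00000186352) chromosome 4, 185396021 to 185400628. P4HA1 (ENSG00000122884) spans chromosome 10, 73007217 to 73096974, P4HA2 (ENSG00000072682) chromosome 5, 132191838 to 132295315, BNIP3 (ENSG00000176171) chromosome 10, 131966455 to 131982013, and EGLN3 (ENSG00000129521) chromosome 14, 33924231 to 34462774. ARHGEF39 overlaps CA9 and UFSP2 overlaps ANKRD37 on the opposite strand, SPTSSA lies within the span of EGLN3 on its strand, and BNIP3 has processed pseudogenes, so shared reads are uncertain for these genes.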

How the data were processed

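Per the labels' protocols, RNA was purified on columns and made into stranded mRNA libraries. The authors deposited 1 table of gene-level TPM, whose 8 value columns carry the line and treatment per the file headers. The submitters' processing notes name STAR 2.7.3a, HTSeq 2.0.2 and hg38; how TPM was computed, the annotation and the handling of shared reads are not given in the sources used here. TPM carries no depth, so no counting interval could be given.

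Values were analysed as log2(TPM + 1) for the 19122 genes with at least 1 TPM in 2 libraries, using limma 3.58.1 in R 4.3.3 (lmFit, eBayes with trend), Benjamini-Hochberg adjustment over all genes and a threshold of 0.05. The model held line, roseoflavin, their interaction and trametinib, with 3 residual degrees of freedom. On simulated data over 19122 genes, it called 0% of log2 differences between lines of 0.5 and 42.35% of those of 1. Over the 7907 RefSeq mRNAs it called 40.85% and 91.5%. False calls averaged 0.1 and 4.6 over all genes, and 2.4 and 7 over the RefSeq mRNAs. A lack of calls over all genes thus says little about differences of 0.5. The additive model gave the trametinib change and the level between lines; the other interactions were added to it 1 at a time. Alternatives were a pseudocount of 0.1, no filter, a mean of 10 TPM or more, RefSeq mRNAs with that mean, quantile normalization, rescaling without mitochondrial genes, leaving out each library, and an added line by trametinib term. A 985926-row blank tail was dropped. Named were the 10 genes, up to 4 genes by p and those past the threshold over all genes in each other list, and the 5 most alike. The receptor levels, HIF1A and EPAS1 were named after their values had been seen. The genes, lists and filters were chosen with earlier results of these data known.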

Additional observations from a re-analysis of the deposited data

Results flagged for a closer look

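Among the 10 genes and those named by smallest p in the other lists, 16 pointed down in all AsPC-1 comparisons with roseoflavin and up in all PANC-1 comparisons. They were 7 of the 10 and 9 of those with the smallest p in the other lists. Genes named for other reasons, such as MT2A and CYP2S1, can show the same pattern and are not in this count. Over all genes tested, both patterns held without overlap for 5.31%. The 9 were picked by p for this same difference between lines, so that share is no like comparison for them. EGLN3, one of the 7, was below 1 TPM in every PANC-1 library. The differences between lines (log2, PANC-1 minus AsPC-1, limma) were 0.83 for VEGFA, 1.31 for ADM, 1.46 for NDRG1, 0.94 for P4HA1, 1.29 for EGLN3, 0.84 for ANKRD37 and 0.86 for FGF11. Outside the 10 genes they were 0.39 for EGLN1, 0.91 for DDIT4, 0.59 for FAM162A, 0.57 for WSB1, 0.74 for KDM3A, 1.10 for HK2, 0.91 for GPI, 0.56 for PGK1 and 0.45 for GAPDH. DDIT4 alone of these passed the test over all genes (adjusted p = 0.0383), a call lost without any 1 library, with quantile normalization, after rescaling and with the added line by trametinib term; the other 15 did not. The mitochondrial share of TPM, 41.2% to 44.1% in AsPC-1 and 22.8% to 25.6% in PANC-1, differs between the lines. Such a gap between lines largely cancels in these differences, so rescaling without mitochondrial genes had little room to turn them. None of the 16 differences changed sign with it, which therefore says little.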

How the results depend on the processing

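The number of calls moved with the filter, scaling and libraries used. For the roseoflavin difference between lines 5 genes were called, and 8 with a pseudocount of 0.1, 98 with no filter, 103 among RefSeq mRNAs averaging 10 TPM or more, 0 with quantile normalization, 0 after rescaling without mitochondrial genes, 0 with the added line by trametinib term and from 0 to 0 without any 1 library. For roseoflavin in AsPC-1 the count went from 0 to 1 (pseudocount), 95 (no filter) and 72 (RefSeq), and in PANC-1 from 0 to 2, 1 and 75, with 22 at a mean of at least 10 TPM. VEGFA's difference also passed with no filter (adjusted p = 0.0353) and at a mean of at least 10 TPM (0.0480). For trametinib the RefSeq filter called 1. Its difference between lines went from 0 to 4 (pseudocount), 244 (no filter) and 2 (rescaled), and the interaction of the compounds from 0 to 14 (no filter). Between lines 16027 genes were called, 11917 higher in PANC-1 and 4110 lower, 7963 and 7177 after quantile normalization, 9488 and 5891 after rescaling, and in all 8388 at a mean of at least 10 TPM and 7236 with RefSeq, where fewer genes were tested. For the roseoflavin changes of the members detected in a line, and their difference between lines, CA9 alone turned sign, in PANC-1: from 0.01 to -0.0188 after rescaling, -0.13 without PANC-1 vehicle and -0.05 without PANC-1 roseoflavin, with a range of -0.13 to 0.15 over the libraries left out. The members' trametinib and interaction values also changed sign between settings, except the interaction of CA9. Apart from fewer genes tested or fewer samples, the cause was not tested. No paired analysis was possible because each group held 1 library.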
